A study of Oryctolagus cuniculus with 9 samples.

Results

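The comparison described here is of rabbit diaphragm after mechanical ventilation with positive end-expiratory pressure (PEEP, the MV_PEEP group, 3 libraries) against diaphragm of the control group (CON, 3 libraries), followed gene by gene. Of 29076 genes in the deposited table, 13126 were tested, those with a mean of at least 0.5 FPKM (a level per transcript length and per library size) over these 6 libraries. The remaining group, mechanical ventilation without PEEP (MV, 3 libraries), was used to share the estimate of the spread and to ask what differed between the ventilated groups. All libraries were of rabbit (Oryctolagus cuniculus) diaphragm, and the labels name no genetic change. The study's methods describe the CON and MV groups as New Zealand white rabbits given pentobarbital, tracheal intubation and dexmedetomidine for mild sedation, with CON animals breathing spontaneously and MV animals ventilated at a set volume without PEEP. They do not describe the MV_PEEP group, for which the labels give a PEEP of 8 with no unit and no duration, so the strain, anaesthesia, hours on the ventilator and feeding of those animals are not known here. Ages and sexes are not given, and nothing in the labels says whether the 3 libraries of a group came from 3 animals, so the p-values below measure the spread between libraries. The nearest genes to the FPKM limit had means of 0.500432 (LOC103347682, inside) and 0.499978 (CCDC14, outside).

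The diaphragm is the main muscle of inspiration and, unlike limb muscles, contracts throughout life. When a ventilator takes over breathing the fibres are unloaded, and PEEP in addition keeps the lungs inflated at the end of expiration, which flattens the dome and holds the muscle at a shorter length. Inactive muscle is known for raising the ubiquitin ligases that mark contractile proteins for the proteasome, for shifts in fuel use and oxidant handling, and for changes in the endplate and in the stretch sensors of the sarcomere.

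One library stood apart from the other 8, and this bears on every result that follows. MV_PEEP replicate 3 had the most genes with a count, 17519 against 15326 to 16990 in the other libraries, and its 20 most abundant genes took 13.3% of its counts, against 18.6% to 31.4%. Its median Pearson correlation with the other libraries on log2 values was 0.82, while the other medians lay between 0.86 and 0.91, a description over 13126 genes that share libraries. Total counts were 36750676, 33024311 and 41077310 in the MV_PEEP libraries and 31791693, 25524766 and 21646702 in the CON libraries.

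All 8 skeletal muscle markers found in the table had counts in every library. ACTA1, the skeletal alpha-actin of the thin filament, had 15130, 17980 and 10740 FPKM in the MV_PEEP libraries and 33470, 36770 and 29790 FPKM in the CON libraries. The markers of 4 other cell types, in contrast, were much higher in 1 library than in any other. The adipocyte markers summed to 490, 526 and 8521 FPKM in MV_PEEP replicates 1, 2 and 3, and to between 211 and 387 FPKM in the CON libraries. Fibroblast markers summed to 225, 523 and 4786 FPKM in MV_PEEP, against 742, 2358 and 878 FPKM in CON. Mesothelial markers summed to 1.5, 1.28 and 98.6 FPKM in MV_PEEP and to between 0.30 and 1.17 FPKM in CON, and macrophage and monocyte markers to 61.7, 32 and 295 FPKM in MV_PEEP and 18.4, 46 and 47.9 FPKM in CON. Thus MV_PEEP replicate 3 held the highest sum of all 9 libraries for each of these 4 lists, while its skeletal muscle sum of 19220 FPKM was the lowest. By a smaller margin it was also highest for endothelial (584 FPKM, next 350) and pericyte and smooth muscle markers (443 FPKM, next 405). The same held for Schwann cell markers (85 FPKM, next 72). It was not the highest for neutrophil, lymphocyte or erythroid markers. Hepatocyte markers summed to 5.86, 20.2 and 44.3 FPKM in MV_PEEP and 9.56, 21.4 and 13.6 FPKM in CON, and transferrin (TF) made up 40.9 FPKM of the sum in replicate 3, with 3 of 8 markers at 0 there. In bulk tissue, fewer cells of a type and less RNA per cell cannot be told apart. Whether a different share of fat, connective tissue, lining or other cells in that piece of tissue took part in the results below was not tested. Results are given with and without MV_PEEP replicate 3 where it changed them.

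**Figure D1:**
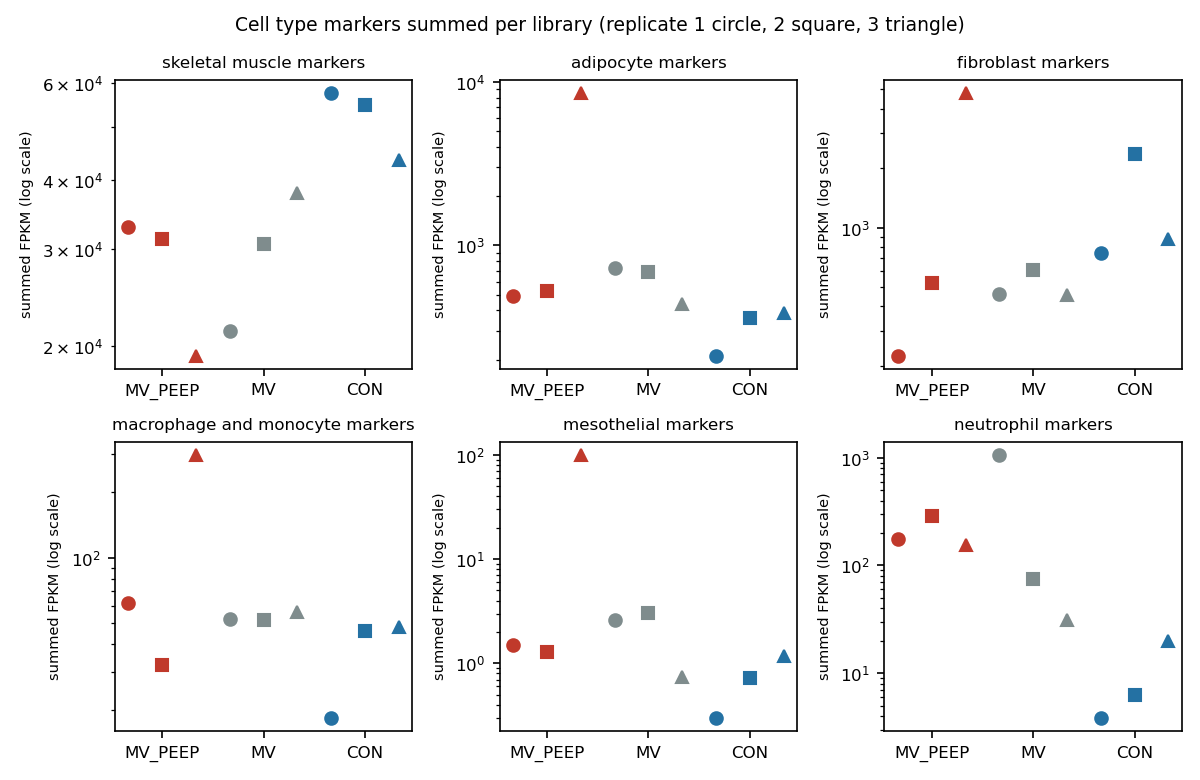
Summed FPKM of 6 marker lists (y axes, log scale) in each of the 9 libraries, by group along the x axes; circles, squares and triangles are replicates 1, 2 and 3. MV_PEEP replicate 3 sits at 8521 FPKM of adipocyte markers, where no other library exceeds 725, and lowest for skeletal muscle markers at 19220, while the neutrophil markers place the 3 MV_PEEP libraries together at 153 to 288 FPKM, above all 3 CON libraries.

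Fold changes were computed from the counts with edgeR's quasi-likelihood test after TMM scaling and are given as log2 values, MV_PEEP over CON, with their standard error (SE). With Benjamini-Hochberg adjustment over all 13126 genes, 0 genes were called at an adjusted p of 0.05. The smallest adjusted p in edgeR was 0.21, for AQP7, and the next was 0.33. At an unadjusted p of 0.05, 420 genes (3.20%) were higher and 396 (3.02%) lower. In contrast, DESeq2 on the same counts gave 55 higher and 43 lower genes after adjustment. With log2(FPKM + 1) in limma there were 2 higher and 0 lower genes after adjustment. Everything below is therefore a description at the unadjusted level. A gene is said to pass where its unadjusted p was under 0.05 and its log2 fold change at least 1 in size. By that rule 359 of 13126 genes (2.74%) were higher in MV_PEEP, with a median log2 fold change of 2.04, and 340 (2.59%) were lower, with a median of -1.585. Since an unadjusted threshold of 0.05 passes that share of genes where nothing differs, counts of this size say little by themselves. Of the 13126 genes, 7188 (54.8%) had a log2 fold change above 0, and the median of all genes was 0.06. On log2(FPKM + 1) without TMM scaling, limma gave 377 higher and 153 lower by the same rule, with the median of all genes at 0.28. RLE scaling of the counts gave 370 and 323 and the upper quartile 319 and 382, so the balance between the directions depends on the settings.

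When MV_PEEP replicate 3 was left out, 265 genes (2.02%) were higher and 445 (3.39%) lower. Only 371 of the 699 genes that passed with all libraries, 53.1%, still passed in the same direction, 175 of them higher and 196 lower. The share kept was 54.5%, 64.9% and 58.1% when CON replicate 1, 2 or 3 was left out, and 76.0% and 74.0% without MV_PEEP replicate 1 or 2, so that the count kept does not single the library out. The size of the fold changes does: 100 genes, all of them higher with all libraries, lost more than 0.5 times their log2 fold change without MV_PEEP replicate 3 and 26 of these changed sign, whereas leaving out any other library did this to 3 to 10 genes. Furthermore, 262 genes were more than 4 times higher in MV_PEEP replicate 3 than in every other library, those of MV included, against 1 to 8 such genes in each of the other 5 of these 6 libraries. MV_PEEP replicate 3 was the highest of these 6 libraries in 205 of the 359 genes that passed as higher, or 57.1%, and in 27.2% of all genes.

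**Figure D2:**
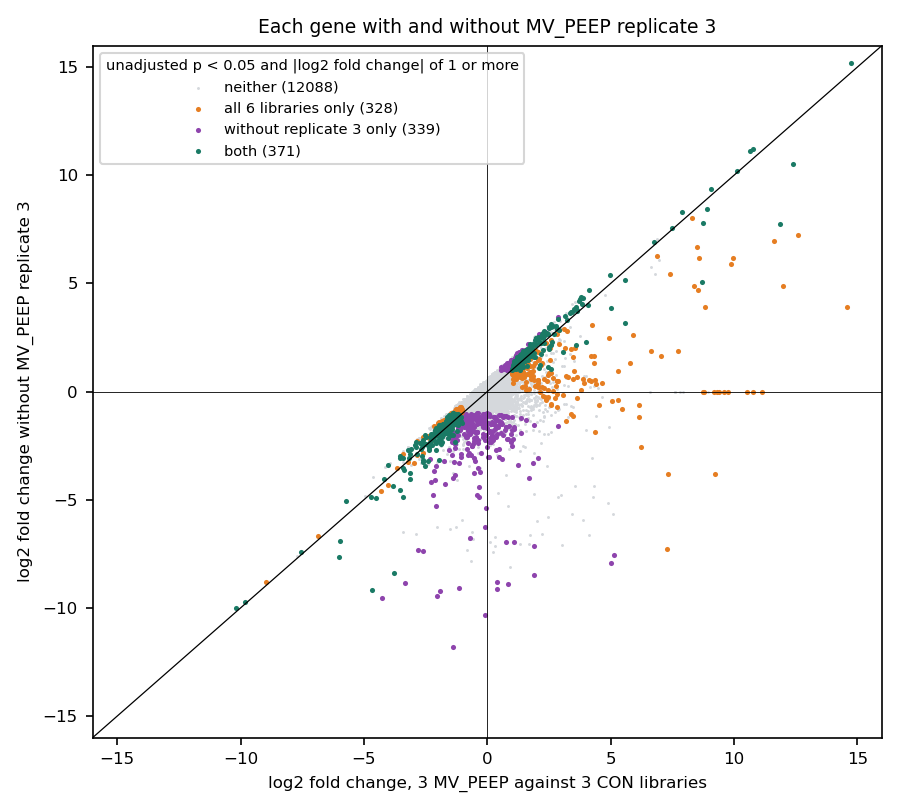
Log2 fold change of each of the 13126 genes with all 6 libraries (x axis) and without MV_PEEP replicate 3 (y axis), coloured by where it passed; the diagonal marks equal values. The 371 genes that passed both ways lie near the diagonal, 328 passed with all libraries only, many of them far to the right with a value near 0 without the library, and 339 passed only without it, most of them below 0 on the y axis.

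**Figure D3:**
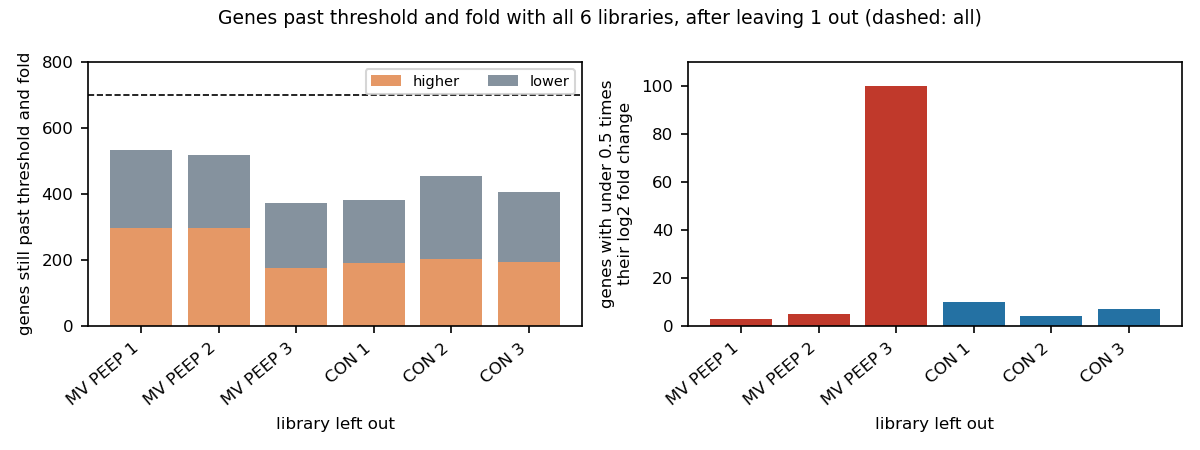
Left, how many of the 699 genes that passed still passed in the same direction after 1 library was left out (y axis, bars divided into higher and lower, dashed line at 699); right, how many kept under 0.5 times their log2 fold change. Without MV_PEEP replicate 3 the left bar stands at 371 and the right bar at 100, where the other right bars lie between 3 and 10.

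The groups did not overlap in 824 genes (6.28%) that were higher and 797 (6.07%) that were lower in MV_PEEP. Among those with a symbol, a mean of at least 1 FPKM and a pass, the 12 higher genes with the smallest p included 4 of fat handling. Their log2 fold changes and those below are given with the SE. AQP7, a channel that carries glycerol across the membranes of fat and muscle cells (build OryCun2.0, chromosome 1, 20067205 to 20078802), had 35.9, 30.6 and 43.9 FPKM in the MV_PEEP libraries and 1.7, 2.66 and 4.96 FPKM in the CON libraries, a log2 fold change of 3.22 ± 0.42 (SE), an adjusted p of 0.21 in edgeR. PLIN2, a coat protein of lipid droplets (chromosome 1, 34734655 to 34759080), had 148, 66.4 and 72.8 FPKM in MV_PEEP, against 8.1, 8.47 and 6.61 FPKM in CON (log2 fold change 3.38 ± 0.68). PDK4, the kinase that switches off pyruvate dehydrogenase and so spares glucose (chromosome 10, 33584163 to 33597124), had 375, 419 and 379 FPKM in MV_PEEP and 36.9, 14.1 and 11.7 FPKM in CON (3.83 ± 0.81). In all 3 genes every MV_PEEP library lay far above the highest CON library, and replicate 3 was not set apart from the other MV_PEEP libraries. CD36, which takes up long-chain fatty acids (chromosome 7, 35300173 to 35391479), had 189, 194 and 598 FPKM in MV_PEEP, against 49.4, 60.8 and 45.9 FPKM in CON (2.2 ± 0.41). Here replicate 3 was highest, and without it the log2 fold change was 1.76.

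The other genes of that group of 12 came from several pathways. CHEK2, a checkpoint kinase that relays DNA breaks, had 5.11, 4.09 and 4.14 FPKM in MV_PEEP, against 0.706, 0.552 and 0.245 FPKM in CON (2.8 ± 0.56), and PARP3, an ADP-ribosyltransferase of break repair (chromosome 9, 19075277 to 19081347), had 25, 16.9 and 58.5 FPKM in MV_PEEP and 3.43, 6.07 and 2.75 FPKM in CON (2.64 ± 0.48). NQO1, a quinone reductase under the control of the oxidant sensor NRF2 (chromosome 5, 25137496 to 25149679), had 39.3, 36.7 and 41.5 FPKM in MV_PEEP and 9.68, 11.4 and 6.67 FPKM in CON (1.77 ± 0.35). The 3 MV_PEEP values of NQO1 and of CHEK2 lay close together and clear of all CON values. ARNTL, also called BMAL1, the core activator of the circadian clock (chromosome 1, 155097314 to 155171188), had 1.56, 5.75 and 6.16 FPKM in MV_PEEP, against 0.653, 0.372 and 0.468 FPKM in CON (2.71 ± 0.55). KLF11, a zinc-finger transcription factor, had 4.96, 7.46 and 7.82 FPKM in MV_PEEP and 1.56, 1.81 and 1.37 FPKM in CON (1.74 ± 0.32), and SIRPA, an inhibitory receptor for CD47 on myeloid cells (chromosome 4, 9109257 to 9149905), had 29.2, 30.1 and 58.4 FPKM in MV_PEEP and 3.89, 10.6 and 10.1 FPKM in CON (1.9 ± 0.37). All 4 of ARNTL, KLF11, SIRPA and PARP3 kept a log2 fold change over 1.5 without any 1 library. The 2 secreted defence proteins of the group varied most between libraries. SAA3, an acute-phase serum amyloid protein, had 1231, 30.9 and 2111 FPKM in MV_PEEP and 0.598, 3.09 and 1.64 FPKM in CON (8.9 ± 1.53); the table holds other serum amyloid genes and how reads shared by them were counted is not given in the sources used here. PTX3, the long pentraxin (chromosome 14, 51841657 to 51848103), had 1.82, 3.53 and 55.9 FPKM in MV_PEEP, against 0.271, 0.266 and 0.223 FPKM in CON (5.6 ± 1.16), and without MV_PEEP replicate 3 its log2 fold change was 3.15.

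Genes given with a fold change from here on passed with all libraries and kept an unadjusted p under 0.05 when any 1 library was left out, unless the text says otherwise. The 12 genes named in the lower direction were mostly genes of low abundance, several of them for the extracellular matrix and for signalling at the cell surface. CILP, a secreted matrix protein (chromosome 17, 7080560 to 7095372), had 6.43, 8.17 and 10.3 FPKM in MV_PEEP and 12.6, 42.9 and 25.5 FPKM in CON (-1.99 ± 0.41). ADAMTSL4, a matrix protein that binds fibrillin fibres (chromosome 13, 41518770 to 41530293), had 11.7, 14.4 and 12.5 FPKM in MV_PEEP, against 36.8, 38.5 and 24.6 FPKM in CON (-1.69 ± 0.35), and hemicentin 2 (HMCN2) had 1.07, 1.59 and 2.24 FPKM in MV_PEEP and 4.66, 16.4 and 7.54 FPKM in CON (-2.85 ± 0.51). These matrix genes were lower in all 3 MV_PEEP libraries, replicate 3 included. DYRK1B, a kinase abundant in skeletal muscle, had 21.1, 22.5 and 21 FPKM in MV_PEEP and 48.4, 74.3 and 36.7 FPKM in CON (-1.58 ± 0.32), and NEURL2, the substrate receptor of a muscle ubiquitin ligase, had 16.8, 18.7 and 15.4 FPKM in MV_PEEP and 71.7, 49.3 and 37.8 FPKM in CON (-1.98 ± 0.41). MTSS1, which links the actin cytoskeleton to curved membrane (chromosome 3, 140280340 to 140448763), had 0.384, 0.941 and 1.67 FPKM in MV_PEEP, against 2.28, 7.89 and 4.49 FPKM in CON (-2.66 ± 0.49). The MV_PEEP values of DYRK1B and NEURL2 were nearly the same in the 3 libraries, and the spread lay in the CON libraries. RGMA, a guidance cue and co-receptor for bone morphogenetic proteins, had 1.71, 1.89 and 1.84 FPKM in MV_PEEP and 4.43, 7.26 and 5.22 FPKM in CON (-1.93 ± 0.39), and RASD2, a small GTPase, had 0.76, 1.2 and 0.496 and 3.79, 7.57 and 2.96 FPKM in the same order (-2.75 ± 0.55). The log2 fold changes of PLXDC1, a plexin-domain surface receptor, KCTD15, a BTB-domain protein, and SAPCD1 were -2.63 ± 0.54, -1.42 ± 0.30 and -2.71 ± 0.49. DNASE1, a secreted endonuclease, had 2.18, 1.14 and 2.1 FPKM in MV_PEEP and 43.2, 5.85 and 23.8 FPKM in CON (-4.17 ± 0.76), and its CON libraries alone covered a wide range. All 24 of these genes, higher and lower, kept an unadjusted p under 0.05 when any 1 of the 6 libraries was left out. They were chosen for a small p and for groups without overlap, so that and the gap between the groups are properties of the choice as well.

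**Figure D4:**
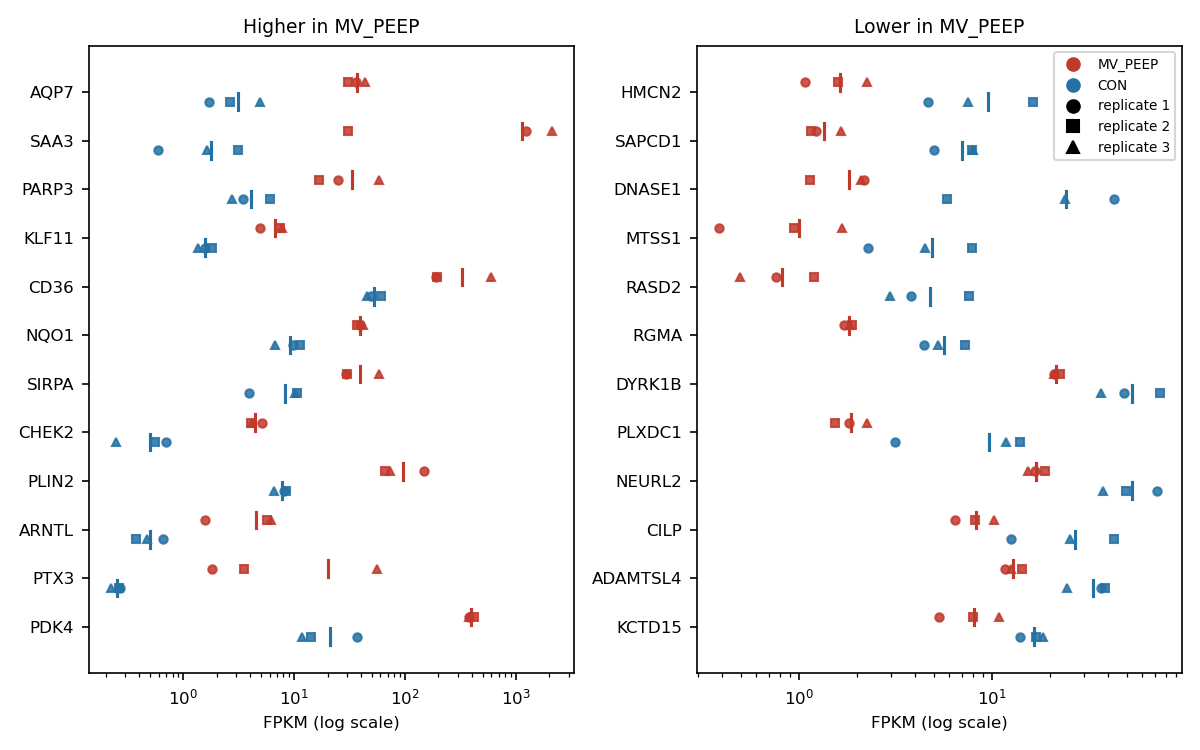
FPKM (x axis, log scale) of the 12 genes named in each direction, higher on the left and lower on the right, in the MV_PEEP (red, upper row of each gene) and CON libraries (blue, lower row); the shape gives the replicate and the bar the mean of 3. The 24 genes were chosen for groups without overlap, so the gap between the groups is a condition of the choice. Replicate 3 stands apart from the other MV_PEEP libraries in PTX3 and CD36 and not in AQP7, NQO1 or PDK4.

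The gene lists below are described by how many members passed and by the median log2 fold change, beside the same over all genes tested, of which 2.74% passed as higher and 2.59% as lower, 54.8% were above 0 and the median was 0.06. Only members that reached the FPKM limit are counted. A member near 0 in CON could reach it through its MV_PEEP values alone, which bears on lists of genes with low values. Of 23 genes for the use of fatty acids and for fasting, 18 had a log2 fold change above 0, against 54.8% of all genes, and the median was 1.24. In this list 10 genes passed as higher and 0 as lower, where 2.74% of all genes passed as higher. Leaving out MV_PEEP replicate 3 gave counts of 11 and 0 and a median of 1.03, and with each other library left out 8 to 13 passed as higher, with 1 as lower without CON replicate 3. AQP7, CD36, PLIN2 and PDK4, described above, had the smallest p of the list. In contrast, the adipocyte markers rested on MV_PEEP replicate 3. Of 7 adipocyte markers 6 passed as higher with all libraries, and 1 as higher and 1 as lower without MV_PEEP replicate 3, with medians of 2.44 and -0.27. FABP4, the fatty acid carrier of adipocytes and capillaries, had 474, 504 and 7369 FPKM in MV_PEEP, against 186, 317 and 366 FPKM in CON (2.66 ± 0.86), and without MV_PEEP replicate 3 its log2 fold change was 0.64 and did not pass. CIDEA, a lipid droplet fusion protein, had 1.53, 2.24 and 621 FPKM in MV_PEEP and 0.111, 8.6 and 1.36 FPKM in CON, and CIDEC, its relative in white fat, had 1.11, 1.64 and 272 and 0.669, 2.8 and 1.87 FPKM in the same order. Their log2 fold changes were 5.44 ± 2.06 and 5.05 ± 1.68 with all libraries and -0.80 and -0.44 without replicate 3, with the other MV_PEEP libraries inside the CON range. CIDEA also did not pass without CON replicate 1 or 3. Over the list, 3, 4 and 3 markers passed as higher without CON replicates 1, 2 and 3.

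Genes of the respiratory chain pointed the other way. None of 63 nuclear-encoded subunits had a log2 fold change above 0, where 54.8% of all genes did, and the median was -0.83. Of these, 12 passed as lower and 0 as higher (all genes, 2.59% lower). The count of 12 depended on single libraries: it was 5 without MV_PEEP replicate 3, 4 without MV_PEEP replicate 2 or CON replicate 1, and 6 when CON replicate 3 was left out. It was 21 without CON replicate 2 and 39 without MV_PEEP replicate 1, while the median stayed below 0 throughout, between -1.37 and -0.47. With MV_PEEP replicate 3 left out, 58 of the 63 were below 0. The 63 subunits summed to 65540, 43640 and 26810 FPKM in MV_PEEP, against 88210, 50880 and 72680 FPKM in CON. MV_PEEP replicate 1 thus lay above CON replicate 2, and the groups overlapped in this sum. Of the 63, 7 were lower without overlap of the groups (all genes, 6.07%). The subunits that follow were named for the smallest p of the list. COX6A2, the striated muscle form of a cytochrome oxidase subunit, had 1272, 989 and 879 FPKM in MV_PEEP and 4049, 2921 and 3132 FPKM in CON (-2.0 ± 0.49), and every MV_PEEP library lay under 0.5 times the lowest CON library. NDUFV3, of complex I, had 88.9, 84.6 and 101 FPKM in MV_PEEP, against 262, 146 and 171 FPKM in CON (-1.46 ± 0.39), and ATP5I, of ATP synthase, had 4.21, 5.39 and 4.56 and 18.1, 10.5 and 12.1 FPKM in the same order (-1.88 ± 0.47). NDUFB1, also of complex I, had 44.1, 62.9 and 81.2 FPKM in MV_PEEP and 97, 66 and 297 FPKM in CON (-1.71 ± 0.53), but 1 CON library carried the difference, since without CON replicate 3 its log2 fold change was -0.78 and did not pass. The skeletal muscle marker sum was lower in all 3 MV_PEEP libraries as well, 32870, 31330 and 19220 FPKM, against 57530, 54720 and 43480 FPKM in CON, and its part in the values of the respiratory chain was not tested.

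Contractile genes of both fibre types had medians below 0. Of 10 fast-fibre genes 1 was above 0 (median -1.0) and 2 passed as lower (all genes, 2.59%), and of 10 slow-fibre genes 0 were above 0 (median -0.735) and 2 passed as lower. The medians without MV_PEEP replicate 3 were -0.535 and -0.467, with 2 passing as lower in each list, and without CON replicate 1 no slow-fibre gene passed. PVALB, parvalbumin, the calcium buffer of fast fibres, had 70, 305 and 28.6 FPKM in MV_PEEP and 485, 656 and 845 FPKM in CON (-2.54 ± 0.85), and without MV_PEEP replicate 2 its log2 fold change was -3.96. CASQ1, the calcium store protein of the fast sarcoplasmic reticulum, had 531, 799 and 297 FPKM in MV_PEEP, against 1098, 1472 and 1119 FPKM in CON (-1.42 ± 0.53). MYL2, the slow regulatory myosin light chain, had 7381, 7256 and 4272 FPKM in MV_PEEP and 26520, 12470 and 18190 FPKM in CON (-1.92 ± 0.63), and MYL3, its essential partner, had 3092, 1971 and 1666 and 9717, 4703 and 4463 FPKM in the same order (-1.8 ± 0.60). All 3 MV_PEEP libraries lay below all 3 CON libraries in each of these 4 genes, as in 6.07% of all genes. They were named for the smallest p of their lists. Summed over the fast-fibre list, MV_PEEP replicate 2 (31640 FPKM) lay above CON replicate 1 (24520 FPKM). The slow-fibre sums did not overlap, at 18410 to 32430 FPKM in MV_PEEP and 37550 to 74750 FPKM in CON. However, MYL2 and MYL3 did not pass without CON replicate 1, their highest library (log2 fold changes -1.48 and -1.19). JPH2, junctophilin, which holds the transverse tubule to the calcium store, had 3.25, 6.34 and 5.72 FPKM in MV_PEEP, against 15.8, 32 and 7.33 FPKM in CON (-2.13 ± 0.53), the only one of 22 genes of excitation-contraction coupling that passed (median -0.27, and 0.06 without MV_PEEP replicate 3). Among 23 genes of glycolysis and glycogen 3 passed as lower (all genes, 2.59%) and 0 as higher, with a median of -0.32 and of -0.03 without MV_PEEP replicate 3, among them SLC2A4, the insulin-regulated glucose transporter, with 37.4, 33.1 and 24.7 FPKM in MV_PEEP and 83.3, 67.7 and 56.7 FPKM in CON (-1.42 ± 0.41). Between 1 (without CON replicate 1) and 4 (without MV_PEEP replicate 1) of these glycolysis genes passed as lower when a library was left out.

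Genes that sense stretch at the Z-disc and on titin differed in direction. ANKRD23, a titin-bound ankyrin protein of the stretch sensor, had 262, 264 and 151 FPKM in MV_PEEP and 1378, 869.7 and 1092 FPKM in CON (-2.6 ± 0.60). CSRP3, the muscle LIM protein of the Z-disc, had 1997, 1138 and 827 FPKM in MV_PEEP, against 269.7, 133 and 136 FPKM in CON (2.59 ± 0.82), and MYBPH, a myosin-binding protein, had 12.8, 9.21 and 15.2 and 0.583, 1.06 and 2.48 FPKM in the same order (2.83 ± 0.74). In these 3 genes the groups did not overlap and the p stayed under 0.05 without any 1 library. They were named for the smallest p of the list, and 6.28% of all genes were higher and 6.07% lower without overlap. ANKRD1, the cardiac ankyrin repeat protein of the same sensor, had 50.7, 184 and 31.7 FPKM in MV_PEEP and 12.4, 55.4 and 63.2 FPKM in CON, with overlapping groups (0.82 ± 0.86), and it did not pass. Over the 23 genes of the list, 2 passed as higher and 4 as lower (all genes, 2.74% and 2.59%), with a median of -0.30. The median turned to 0.06 without MV_PEEP replicate 3, with 12 of 23 above 0, and was -0.64 without MV_PEEP replicate 1. The count of 4 became 2 without MV_PEEP replicate 3 and 1 without CON replicate 1.

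The endplate genes include the proteins that spread over the fibre when the nerve falls silent. MUSK, the kinase that organises the endplate, had 5.14, 6.07 and 3.87 FPKM in MV_PEEP, against 0.405, 0.715 and 1.23 FPKM in CON (2.4 ± 0.60), with 2.71 without MV_PEEP replicate 3. CHRND, the delta subunit of the acetylcholine receptor, had 12.5, 7.66 and 5.97 FPKM in MV_PEEP and 1.64, 1.26 and 1.84 FPKM in CON (2.19 ± 0.82), and CHRNA1, the alpha subunit, had 11.5, 13.2 and 10.3 and 4.93, 4.41 and 2.54 FPKM in the same order (1.25 ± 0.47). No MV_PEEP library overlapped with a CON library in these 3 genes, where 6.28% of all genes were higher without overlap. They were named for the smallest p of their list. For CHRND, without MV_PEEP replicate 1 its log2 fold change was 1.64 and did not pass and without CON replicate 2 its log2 fold change was 1.96 and did not pass, and for CHRNA1 it did not pass without MV_PEEP replicates 1 or 2 or CON replicates 2 or 3, with log2 fold changes between 1.03 and 1.58 over the 6 leave-outs. These 3 genes were those that passed of 17 in the list of the neuromuscular junction and denervation (all genes, 2.74%), with 0 lower, a median of 0.47, and 4 higher with a median of 0.29 without MV_PEEP replicate 3. The count was 1 without MV_PEEP replicate 1 or CON replicate 2.

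Among the genes of protein breakdown, both classical atrophy ligases were higher. FBXO32 (atrogin-1; chromosome 3, 139303110 to 139340689) had 100.5, 82.2 and 73.1 FPKM in MV_PEEP and 21.4, 25.6 and 3.31 FPKM in CON (2.09 ± 0.70), and TRIM63 (MuRF1; chromosome 13, 139223164 to 139237656) had 166, 134 and 219 FPKM in MV_PEEP, against 37.3, 54.9 and 25.2 FPKM in CON (1.82 ± 0.54). The 3 MV_PEEP values lay above all CON values in both genes, as in 6.28% of all genes. Without MV_PEEP replicate 3 the log2 fold changes were 2.35 and 1.85. FBXO40, a muscle ligase that targets insulin receptor substrate, went the opposite way, with 26.6, 42.7 and 22.6 FPKM in MV_PEEP and 67.9, 58.4 and 54 FPKM in CON (-1.28 ± 0.41, and -0.96 without replicate 3, which did not pass). Of the 15 ligases listed, these were the 2 that passed as higher and the 1 as lower, and the median of -0.07 turned to 0.24 without MV_PEEP replicate 3 and to 0.13 on log2(FPKM + 1). None of 37 proteasome subunits passed in either direction, although 32 had a log2 fold change above 0 (median 0.18). That median was -0.11 without MV_PEEP replicate 1 and 0.04 without CON replicate 2. Without MV_PEEP replicate 3 the proteasome median was 0.51 and 6 subunits were higher at an unadjusted p under 0.05, none of them with a log2 fold change of 1, where 2.59% of all genes were higher at that p. PSMD4, a ubiquitin receptor of the proteasome, had 309.8, 376 and 188 FPKM in MV_PEEP, against 171, 148 and 149.8 FPKM in CON, with replicate 3 nearest to the controls (0.61 ± 0.43, which did not pass, and 0.98 without it). None of 24 genes of autophagy and the lysosome passed (median 0.21). DDIT4, an inhibitor of the growth kinase mTORC1 induced by stress and glucocorticoids, had 53.1, 109 and 242 FPKM in MV_PEEP and 10.2, 23.7 and 16.2 FPKM in CON (2.59 ± 0.73).

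NRF2 and antioxidant genes gave 6 of 25 higher (all genes, 2.74%) and 0 lower, with 19 above 0 and a median of 0.465. The counts were 5 and 0 without MV_PEEP replicate 3, with a median of 0.59, and without CON replicate 1 the count was 3. Besides NQO1 the list held CAT, catalase, with 99.5, 135 and 122 FPKM in MV_PEEP and 26.1, 41.9 and 33.6 FPKM in CON (1.5 ± 0.44). The catalase values of the MV_PEEP libraries were close together and clear of all CON values, where 6.28% of all genes were higher without overlap. None of 25 heat shock proteins and co-chaperones and none of 8 CCT chaperonin subunits passed in either direction, with medians of -0.17 and 0.32. These medians were 0.08 and 0.55 without MV_PEEP replicate 3, and the second was -0.01 without MV_PEEP replicate 1. Of 22 genes of the ATF4 and unfolded protein response 3 passed as higher (all genes, 2.74%), with a median of 0.57, and 11 of 22 were above 0 without MV_PEEP replicate 3. None passed without MV_PEEP replicate 3 or CON replicate 2, and 1 without CON replicate 1 or 3. TRIB3, an ATF4 target, had 0.351, 0.413 and 9.47 FPKM in MV_PEEP and 0.199, 0.423 and 0.388 FPKM in CON (2.67 ± 1.16), and 0.05 without replicate 3. PSAT1, an enzyme of serine synthesis, had 0, 0.203 and 32.1 FPKM in MV_PEEP and 0.424, 0.188 and 0.301 FPKM in CON, and its log2 fold change of 4.35 ± 1.93 turned to -1.87 without replicate 3. Neither TRIB3 nor PSAT1 passed when any 1 CON library was left out.

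Hormone-responsive and immediate-early genes were higher in part. ANGPTL4, a secreted inhibitor of lipoprotein lipase that fasting and glucocorticoids induce, had 25.6, 51.3 and 121 FPKM in MV_PEEP, against 2.29, 0 and 0.27 FPKM in CON (5.59 ± 1.35), and without CON replicate 1 its log2 fold change was 8.4. CEBPD, a transcription factor of the acute-phase and glucocorticoid response, had 48.8, 113 and 243 FPKM in MV_PEEP and 16.8, 16.8 and 17.3 FPKM in CON (2.5 ± 0.76). In both genes replicate 3 was the highest, with the other MV_PEEP libraries still above every CON library. Of 19 glucocorticoid-responsive genes 5 passed as higher (all genes, 2.74%) and 0 as lower (median 0.63), and 4 to 7 as higher with a library left out, 4 of them without MV_PEEP replicate 3 (median 0.33, and 0.23 without MV_PEEP replicate 2). Of 20 immediate-early genes, which are switched on within minutes of a stimulus, 5 passed as higher (all genes, 2.74%) and 0 as lower (median 1.35), and 7 without MV_PEEP replicate 3 (median 1.695). That count was 2 without MV_PEEP replicate 2, CON replicate 1 or CON replicate 2, and the median was 0.29 without MV_PEEP replicate 2. EGR1, a zinc-finger immediate-early factor, had 14.9, 95.9 and 26.7 FPKM in MV_PEEP, against 2.25, 7.26 and 8.67 FPKM in CON (2.65 ± 0.78). Its highest value came from replicate 2, and without MV_PEEP replicate 2 its log2 fold change was 1.39. MYC had 6.83, 17.8 and 32.4 FPKM in MV_PEEP and 1.10, 3.61 and 4.18 FPKM in CON (2.26 ± 0.74). In the circadian clock list, ARNTL and NFIL3 passed as higher and HLF as lower of 16 genes (all genes, 2.74% and 2.59%), with a median of -0.17, and of 0.17 without MV_PEEP replicate 2. NFIL3, a repressor on D-box elements, had 12.2, 15.6 and 18.9 FPKM in MV_PEEP and 2.59, 2.12 and 3.17 FPKM in CON (2.18 ± 0.66), and HLF, an activator on the same elements, had 2.61, 4.32 and 3.29 and 4.31, 9.04 and 4.77 FPKM in the same order (-1.1 ± 0.35). HLF did not pass without MV_PEEP replicate 3 or CON replicate 2, with log2 fold changes of -0.90 and -0.86. The hour of sampling is not given in the labels, so time of day and ventilation cannot be told apart for these genes.

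The study asked about cellular senescence in the ventilated diaphragm. CDKN1A, the p21 inhibitor of the cell cycle, had 3.77, 9.14 and 12.3 FPKM in MV_PEEP and 0.593, 2.12 and 2.73 FPKM in CON, so that every MV_PEEP library lay above every CON library, as in 6.28% of all genes (1.83 ± 0.82). It only just passed, and did not pass without MV_PEEP replicate 2 or 3 or CON replicate 1 or 2. Of 12 genes of senescence and its secreted factors 4 passed as higher (all genes, 2.74%) and 0 as lower (median 0.56), and 2 as higher and 1 as lower without MV_PEEP replicate 3 (median 0.25). That count was also 2 without MV_PEEP replicate 2 or CON replicate 2. LMNB1, lamin B1, whose loss marks senescent cells, was among the 4 with 3.14, 5.25 and 8.99 FPKM in MV_PEEP, against 1.72, 1.85 and 0.974 FPKM in CON (1.51 ± 0.63), and it did not pass without MV_PEEP replicates 2 or 3 or CON replicates 2 or 3, with log2 fold changes between 1.3 and 1.75 over the 6 leave-outs. The sense of LMNB1 is the opposite of what the list's name says. MMP9, a matrix protease, lay below the FPKM limit with 0, 0.681 and 0.378 FPKM in MV_PEEP and 0 in all 3 CON libraries. Among 16 genes of DNA damage sensing and repair 3 passed as higher (median 0.13; all genes, 2.74% and 0.06), CHEK2, PARP3 and FANCD2, of which FANCD2 had 3.72, 21 and 6.38 FPKM in MV_PEEP and 1.99, 2.59 and 4.36 FPKM in CON (1.48 ± 0.66) and rested on replicate 2, since it did not pass without MV_PEEP replicate 2 or CON replicates 1 or 2, with log2 fold changes between 0.32 and 1.91 over the 6 leave-outs. None of 20 proliferation genes passed with all libraries (median 0.40), and 2 passed as lower without MV_PEEP replicate 3 (median -0.44).

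Signals of inflammation divided into those present in all 3 MV_PEEP libraries and those of replicate 3. Neutrophil markers were of the first kind. S100A12, a calcium-binding protein of neutrophil granules (chromosome 13, 39016932 to 39018848), had 56.7, 73.8 and 32.2 FPKM in MV_PEEP, against 0, 0 and 0.616 FPKM in CON (7.9 ± 1.78), S100A9 had 55.8, 77.2 and 75.8 and 2.53, 1.5 and 8.65 FPKM in the same order (3.65 ± 1.10), and S100A8, its partner in calprotectin, had 62.1, 131 and 40.8 and 0.348, 3.19 and 9.81 FPKM (3.89 ± 1.36). All 3 genes passed with and without MV_PEEP replicate 3, and S100A8 did not pass without CON replicate 2. The fold of S100A12 is against libraries at or near 0, so its size depends on the fit, and no fold is given without CON replicate 3, the one CON library with a count. All 6 neutrophil markers tested had a log2 fold change above 0, with a median of 3.29, and 3.54 without MV_PEEP replicate 3. The FPKM limit is a mean over both groups, so a marker near 0 in CON, such as S100A12, was tested because of its MV_PEEP values. The share above 0 therefore depends in part on the limit. The remaining 5 of 11 in the table lay below the FPKM limit, and 3 to 5 of the 11 were at 0 in the MV_PEEP libraries and 5 or 6 in the CON libraries.

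Acute-phase genes passed as higher in 6 of 10 cases, where 2.74% of all genes did (median 3.9), and in 2 without MV_PEEP replicate 3 (median 1.75). HP, haptoglobin, the scavenger of free haemoglobin (chromosome 5, 27498984 to 27502979), had 55, 77.5 and 16770 FPKM in MV_PEEP and 2.69, 28.5 and 21.5 FPKM in CON (7.73 ± 2.14), and without MV_PEEP replicate 3 its log2 fold change was 1.86 and did not pass. CFB, complement factor B, had 24.3, 21.5 and 208 FPKM in MV_PEEP, against 0.884, 9.45 and 5.05 FPKM in CON (3.58 ± 0.91), and without MV_PEEP replicate 3 its log2 fold change was 2.14. In both genes replicate 3 was far above the rest, and the other MV_PEEP libraries still exceeded the CON libraries. Of 16 genes of inflammation and NF-kB 4 passed as higher (all genes, 2.74%; median 0.93), and 0 without MV_PEEP replicate 3 (median 0.11), 0 without CON replicate 1 or 2, and 2 without CON replicate 3. VCAM1, an adhesion molecule for leukocytes, had 0.842, 0.648 and 49.3 FPKM in MV_PEEP and 0.436, 1.15 and 1.01 FPKM in CON, with the log2 fold change at 3.65 ± 1.32 with all libraries and -0.29 without replicate 3, and it did not pass without CON replicate 1 or 2 either. Of 9 macrophage and monocyte markers 2 passed as higher (median 1.41), and 0 without MV_PEEP replicate 3 (median 0.23), 1 without CON replicate 1, 5 without MV_PEEP replicate 1 and 7 without MV_PEEP replicate 2. CD14, a receptor for bacterial lipopolysaccharide, had 3.17, 6.06 and 31.5 FPKM in MV_PEEP and 1.52, 3.38 and 2.8 FPKM in CON (1.87 ± 0.64), and without MV_PEEP replicate 3 its log2 fold change was 0.72 and did not pass and without CON replicate 1 its log2 fold change was 1.68 and did not pass.

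Interferon genes did not share this direction. Of 19 tested, 3 had a log2 fold change above 0 and 3 passed as lower, where 54.8% of all genes were above 0 and 2.59% passed as lower (median -0.45, and -0.65 with 1 lower without MV_PEEP replicate 3). The count was 7 without CON replicate 1 and 1 without CON replicate 2. CD3D, part of the T cell receptor complex, had 0.655, 1.94 and 2.09 FPKM in MV_PEEP and 1.63, 5.99 and 6.06 FPKM in CON (-1.88 ± 0.74), and was the 1 of 5 lymphocyte markers tested that passed (median -1.09). However, it did not pass without MV_PEEP replicates 1 or 3 or CON replicates 2 or 3, with log2 fold changes between -2.24 and -1.53 over the 6 leave-outs.

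Matrix genes depended on MV_PEEP replicate 3. With all libraries, 11 of 20 collagen chains had a log2 fold change above 0 (median 0.35), 0 passed as higher and 1 as lower. Without that library 0 of 20 were above 0, where 49.6% of all genes were, the median was -1.61 and 10 passed as lower, where 3.39% of all genes did. The other matrix genes went likewise, with 1 of 46 higher and 5 lower and a median of 0.01 with all libraries, and 0 higher, 20 lower and a median of -1.27 without. Fibroblast markers gave 1 of 13 higher and 1 lower (median 0.27) with all libraries, and 0 higher and 11 lower (median -1.91) without. On log2(FPKM + 1) the medians of collagens and fibroblast markers with all libraries were -0.02 and -0.27, while RLE and upper quartile scaling of the counts kept both above 0. Among the other 5 libraries, leaving 1 out gave between 0 and 2 collagens and between 0 and 1 fibroblast markers passing as lower. Without CON replicate 2, which held the highest CON sum of fibroblast markers, 1 of the other matrix genes passed as lower. The medians of the 3 lists were then 0.91, 0.49 and 0.56, with MV_PEEP replicate 3 kept. Collagen chains summed to 182, 343 and 4289 FPKM in MV_PEEP and to 339, 1485 and 516 FPKM in CON. MV_PEEP replicate 2 was therefore not below CON replicate 1, and CON replicate 2 was again the highest CON library. No fit left out MV_PEEP replicate 3 and CON replicate 2 together.

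DPT, dermatopontin, a small matrix protein made by fibroblasts (chromosome 13, 24289700 to 24323503), had 10.9, 16.9 and 446 FPKM in MV_PEEP, against 41.2, 93.3 and 42.7 FPKM in CON, a log2 fold change of 0.82 ± 1.0 with all libraries and -2.18 without replicate 3. FBLN2, fibulin 2, had 1.09, 3.41 and 52 FPKM in MV_PEEP and 7.8, 23.3 and 13.4 FPKM in CON (-0.24 ± 0.97, and -2.83 without it), and TNXB, tenascin X, had 1.55, 2.37 and 11.6 and 4.52, 12.2 and 9.1 FPKM in the same order (-1.23 ± 0.58, and -2.23). None of the 3 genes passed with all libraries. In each of them MV_PEEP replicates 1 and 2 lay below every CON library, and replicate 3 lay within or above the CON range. PCOLCE2, an enhancer of collagen processing, MEOX1, a homeobox factor, and FOXN3, a forkhead repressor, showed the same arrangement, with log2 fold changes of -2.95, -2.9 and -1.97 without replicate 3, against -0.77 ± 0.87, -1.08 ± 0.82 and -0.95 ± 0.55 with it. These 6 were named for the smallest p among 192 genes with a mean of at least 1 FPKM that passed as lower only without the library, so their values are a description of that choice. POSTN, periostin, was lower with replicate 3 included, with 1.17, 1.43 and 2.47 FPKM in MV_PEEP and 1.93, 9.54 and 2.76 FPKM in CON (-1.77 ± 0.52), but without CON replicate 2 its log2 fold change was -0.99 and did not pass. By fold change, mural cells of vessels pointed the same way as the matrix without the library. Of 11 pericyte and smooth muscle markers 10 were below 0, where 54.8% of all genes were above 0. Their median was -0.68 with all libraries and -0.95 without, and 2 and 3 passed as lower (all genes, 2.59% and 3.39%). The count passing as lower was 0 without MV_PEEP replicate 1 or CON replicate 2. These markers summed to 121, 184 and 443 FPKM in MV_PEEP, against 168, 305 and 405 FPKM in CON. Replicate 3 thus lay above every CON library in this sum. Endothelial markers did not pass, 0 of 13 in either direction (median -0.03, and -0.30 without MV_PEEP replicate 3).

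Among the genes that passed as higher, 78 with a mean of at least 1 FPKM kept under 0.5 times their log2 fold change without MV_PEEP replicate 3, and HP and LIPE had the smallest p of them. LIPE, hormone-sensitive lipase of fat cells, had 4.51, 4.91 and 37.8 FPKM in MV_PEEP and 2.08, 2.43 and 1.34 FPKM in CON (2.44 ± 0.67), and without MV_PEEP replicate 3 its log2 fold change was 1.15, so that it still passed at a smaller value. PDPN, podoplanin, a surface glycoprotein of lymphatic and mesothelial cells, had 0.977, 2.5 and 56.2 FPKM in MV_PEEP, against 0.503, 1.01 and 0.394 FPKM in CON (4.33 ± 1.31, and 1.31 without replicate 3). CHI3L1, a secreted chitinase-like protein, had 4.68, 0.911 and 280.3 FPKM in MV_PEEP and 0.536, 2.47 and 0.441 FPKM in CON (5.79 ± 1.76, and 1.31). SAMHD1, a nucleotide hydrolase of myeloid cells, and CP, the copper carrier ceruloplasmin, had log2 fold changes of 2.46 ± 0.75 and 4.22 ± 1.32 with all libraries and of 0.78 and 1.63 without it. PDPN, CHI3L1, SAMHD1 and CP did not pass without replicate 3. No gene that passed as lower lost its value to that library in this way, since 0 of them kept under 0.5 times it. In the reverse case, 73 such genes passed as higher only without it. Here ASB5, a muscle ankyrin protein of ubiquitin ligase complexes, had 151, 40.4 and 17.1 FPKM in MV_PEEP and 29.9, 25.4 and 15.9 FPKM in CON (1.39 ± 0.75, and 1.92 without it), and FAM134B, a receptor for autophagy of the endoplasmic reticulum, had 171, 76.3 and 37.6 and 48.4, 39.6 and 20.1 FPKM in the same order (1.2 ± 0.63, and 1.67). In both genes MV_PEEP replicate 1 had the highest value and replicate 3 the lowest, and without replicate 1 the log2 fold changes were -0.11 and 0.26.

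**Figure D5:**
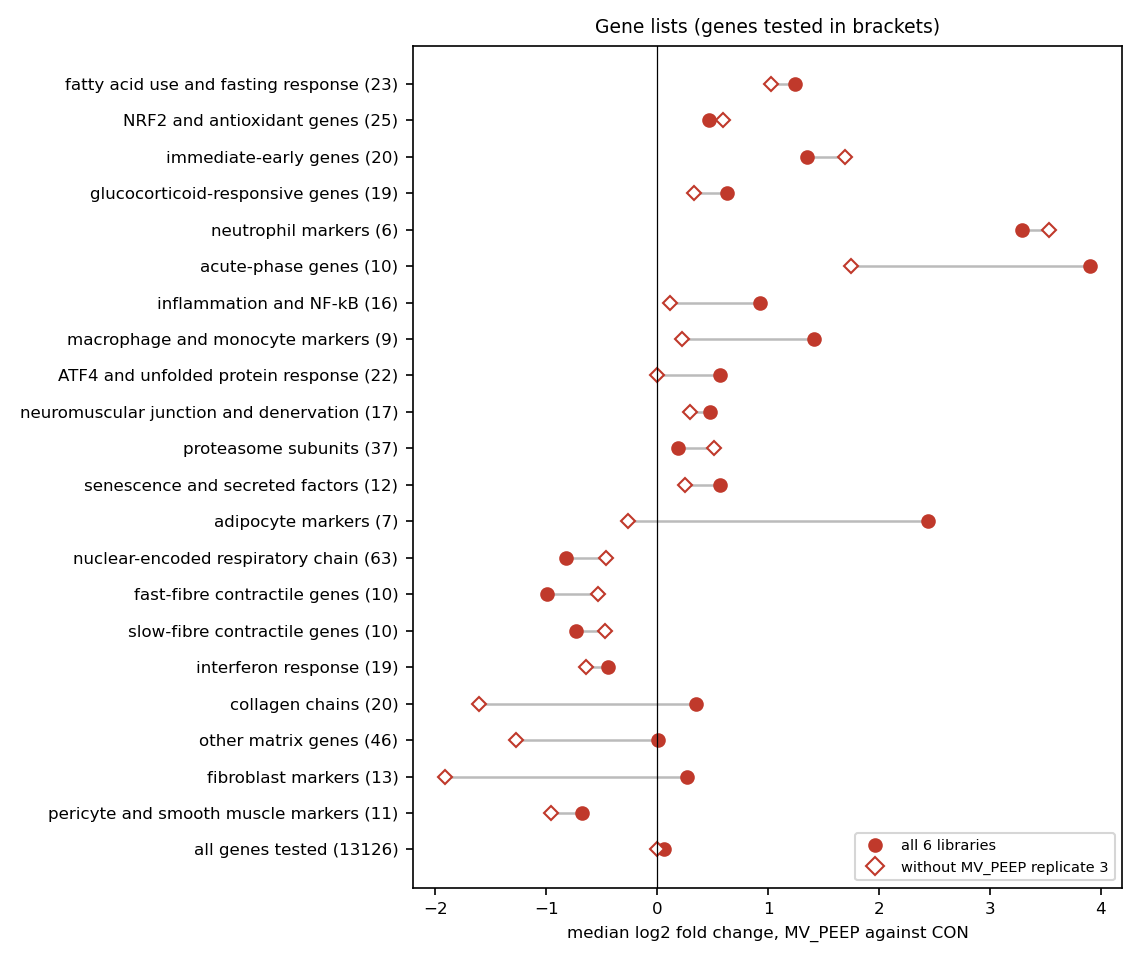
Median log2 fold change, MV_PEEP against CON (x axis), of 21 gene lists and of all 13126 genes, with all 6 libraries (filled circles) and without MV_PEEP replicate 3 (open diamonds); the number of genes tested stands in brackets. Collagens (0.35 and -1.61), fibroblast markers (0.27 and -1.91) and adipocyte markers (2.44 and -0.27) cross 0, while fatty acid genes (1.24 and 1.03) and the respiratory chain (-0.83 and -0.47) stay on their side.

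To ask what was particular to ventilation with PEEP, MV_PEEP was set against MV in the same fit. After Benjamini-Hochberg adjustment edgeR called 0 genes (smallest adjusted p 0.982). At an unadjusted threshold of 0.05, 298 genes (2.27%) were higher and 161 (1.23%) lower, and 270 (2.06%) were higher and 120 (0.914%) lower by the rule used above. Without MV_PEEP replicate 3, 78 (0.594%) were higher and 145 (1.10%) lower, and with the other libraries of these groups left out in turn 167 to 624 were higher and 132 to 355 lower, 624 and 355 of them without MV_PEEP replicate 1 and 167 without MV replicate 3. MTSS1 had 7.01, 8.99 and 3.77 FPKM in the MV libraries (log2 difference -3.03 ± 0.50), so that it was lowest in MV_PEEP of all groups. EGR1 had 11.4, 4.17 and 2.75 FPKM in MV (2.78 ± 0.78), and its difference was 1.51 without MV_PEEP replicate 2. RFX5, a factor for MHC class II genes, had 4.32, 5.59 and 6.15 FPKM in MV_PEEP, against 1.43, 0.938 and 1.25 FPKM in MV (1.87 ± 0.42). Without MV_PEEP replicate 3 these 3 differences were -3.34, 3.15 and 1.97, and each kept a p under 0.05 with any 1 library of MV_PEEP or MV left out. ANKRD1 was lower, with 183, 750 and 132 FPKM in MV (-2.11 ± 0.89), but did not pass without MV_PEEP replicate 1, MV_PEEP replicate 3 or MV replicate 2. Some genes named above for their difference from CON did not pass against MV. AQP7 had 32.9, 26.9 and 25.2 FPKM in MV (0.13 ± 0.38), PDK4 had 830, 521 and 79.8 FPKM (-0.39 ± 0.72), TRIM63 had 296, 86.4 and 52.8 FPKM (0.09 ± 0.52) and CHEK2 had 5.44, 4.61 and 2.19 FPKM (-0.03 ± 0.52). Not passing does not show that the ventilated groups were alike in these genes. In contrast, LIPE, CIDEA and CIDEC passed as higher against MV, with log2 differences of 1.54 ± 0.65, 6.5 ± 2.16 and 5.42 ± 1.71. These were 0.23, 0.26 and -0.06 without MV_PEEP replicate 3 and did not pass, and LIPE also did not pass without MV replicate 1 or 3. Collagen chains had a median log2 difference of 1.68 against MV, with 6 of 20 higher at an unadjusted p of 0.05, where 2.27% of all genes were, and their summed level was 182, 343 and 4289 FPKM in the MV_PEEP libraries and 245, 451 and 210 FPKM in the MV libraries. The median was -0.26 without MV_PEEP replicate 3, with 0 of 20 higher and 1 lower at that p, and 13 were higher without MV_PEEP replicate 1, 1 without MV replicate 1 and 0 without MV replicate 3.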

How the data were processed

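RNA sequencing libraries were prepared by the authors from poly(A)-selected, strand-marked RNA of rabbit diaphragm. Per the submitters' processing notes, cutadapt 1.9, HISAT2 2.0.4, StringTie 1.3.4d and the OryCun 2.0 build were used, and the program behind the counts is not given in the sources used here. The deposited table held, for each gene and library, a read count that had not been normalized and an FPKM value that the authors had scaled to gene length and library total, with 0.0001 in place of 0. Of the counts from 1 to 12, 54.3% were 4, 8 or 12, a pattern whose cause was not tested, and an alternative divided the counts by 4. Gene names came from the table, and 774 placeholder names were replaced from RefSeq after 23368 of 29076 IDs had matched.

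Genes with a mean of at least 0.5 FPKM over the 3 MV_PEEP and 3 CON libraries were tested on counts with edgeR 4.0.16 in R 4.3.3 (quasi-likelihood F test, TMM scaling, 1 mean per group over all 9 libraries, 6 residual degrees of freedom, Benjamini-Hochberg adjustment over 13126 genes). The common biological coefficient of variation was 0.558, and 0.51 without MV_PEEP replicate 3. TMM factors were 1.473 for MV_PEEP replicate 3 and 0.786 to 1.098 for the other libraries. Folds come from scaled counts, and the FPKM beside them are the deposited values, so that both can differ. An exact permutation test of 3 against 3 cannot go below p = 0.1. The test was also run on counts simulated from the means, totals and spread of these libraries, with folds set in some genes. No simulated library was set apart as MV_PEEP replicate 3 was. That run therefore cannot show how well the test finds folds in these data. Alternatives used DESeq2 1.42.0, limma 3.58.1 on log2(FPKM + 1) or log2(FPKM + 0.1), other scalings and filters, a replicate block and each library left out in turn.

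Genes were named by rule: the 12 with the smallest p in each direction (symbol, unadjusted p under 0.05, log2 fold change of at least 1, mean of at least 1 FPKM, no overlap of scaled values), up to 4 per gene list, the genes the study measured, and up to 6 in each direction whose log2 fold change fell under 0.5 times its size, or which came to pass, without MV_PEEP replicate 3. The genes, the comparison and the 48 gene lists were chosen with earlier results of these data known. A few genes are not reported here. Some members of families with near-identical copies, such as serum amyloid genes, may share reads. All samples had a column in the table, 0 columns were left unmapped, and no reference sequence was used here. Total counts, 21646702 to 43697018 per library, limit the precision of low genes to counting error at best.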

Additional observations from a re-analysis of the deposited data

How the results depend on the processing

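Without filter 590 genes were higher by unadjusted p and fold, and 555 with limma on log2(FPKM + 0.1), against 359 in edgeR, while 153 and 194 were lower with limma on log2(FPKM + 1) and log2(FPKM + 0.1), against 340. After adjustment DESeq2 called 55 genes higher and 43 lower, and limma 2 higher with either pseudocount, where edgeR called 0. The median of all genes was 0.28 and 0.35 in the limma fits, which differ from edgeR in unit, scaling, transform and test, against 0.06. Relative scaling by RLE gave 370 and 323, the upper quartile 319 and 382, the newer edgeR form 422 and 398, counts divided by 4 382 and 363, and a minimum of 1 FPKM 310 and 319. Leaving out 1 library gave 254 to 491 higher and 240 to 460 lower, with 0 genes called after adjustment in any of these fits, where the smallest adjusted p was 0.0506 without CON replicate 3. Against MV, 78 to 624 genes were higher and 132 to 355 lower when 1 library was left out, where all libraries gave 270 and 120. The fits against MV without libraries other than MV_PEEP replicate 3 were added after seeing the data.

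The replicate numbers share no stated animal or day, and libraries with the same number deviated together with r from -0.269 to 0.362, with 2 of 9 libraries closest to their own number. With the replicate block 250 genes were higher and 307 lower against CON, and 145 higher and 88 lower against MV.

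Over 259 values of genes and lists, 1298 of 1554 fits with 1 library left out kept direction and side of the threshold, 154 no longer passed, 58 newly passed, 40 moved and 4 reversed. The 4 reversals were without MV_PEEP replicate 3, PSAT1 at -1.87, VCAM1 at -0.29, CIDEC at -0.44 and CIDEA at -0.80, and all 4 genes had their highest FPKM in that library. The other fits with 1 library left out reached 4.94, 4.21, 5.62 and 7.4 for these 4 genes. Of 2843 other fits 2592 kept their side, 121 no longer passed, 91 newly passed, 39 moved and 0 reversed. On log2(FPKM + 1) the medians of collagen chains (-0.02), other matrix genes (-0.08), fibroblast markers (-0.27), atrophy ligases (0.13), heat shock genes (0.16), clock genes (0.06), ribosomal genes (0.34), hypoxia genes (0.22) and endothelial markers (0.19) had the opposite sign. The causes of these differences were not tested. With 3 libraries a group, a coefficient of variation of 0.558 and 0 calls after adjustment, a gene that did not pass cannot be said not to differ.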

Other observations

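A few genes were counted in every library of one group and in none of the other, and they were picked after their values were seen. LOC103350348, annotated as similar to CAMTA1, a calmodulin-binding transcription activator, had 217, 107 and 169 counts in the MV_PEEP libraries and 0 in all 3 CON and all 3 MV libraries. Against a floor of 3 counts over the group, it was at least 117-fold higher than in CON and at least 165-fold higher than in MV. LOC108176124, annotated as similar to the kinesin KIF19, was at 0 in the 3 MV_PEEP libraries and had 107, 40 and 133 counts in the CON libraries, at least 131-fold higher in CON. Whether such genes differ between animals rather than between groups was not tested.

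LCN2, lipocalin 2, an iron-scavenging protein of neutrophils and stressed epithelium, had 13, 61 and 83 counts in MV_PEEP and 0 in CON, at least 37.3-fold higher. CDH16, a cadherin known from kidney, had 608, 41 and 18 counts in MV_PEEP and 0 in CON, at least 158-fold higher, with most counts in replicate 1. ALOX15, a lipoxygenase, had 14, 47 and 2360 counts in MV_PEEP and 0 in CON, at least 575-fold higher, with most counts in replicate 3. These 3 genes had counts in each MV_PEEP library, though the level came mainly from 1 of them in CDH16 and ALOX15.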
